A study of Mus musculus with 48 samples.

Results

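Genes that restrain Wnt signalling were followed through the tibial metaphysis, the flared part of the shin bone below the growth plate, of 8 inbred mouse strains whose left hindlimb had been immobilized in a cast. They are 10 genes taken by symbol, Sost, Dkk1, Sostdc1, Sfrp1, Sfrp2, Sfrp4, Wif1, Notum, Nkd2 and Axin2, out of the 32544 gene rows of the count table. The animals were males aged 19 weeks. The strains, with 3 mice each, were the laboratory strains C57BL/6J, A/J and 129S1/SvImJ, the metabolic disease models NZO/HlLtJ and NOD/ShiLtJ, and the wild-derived WSB/EiJ, PWK/PhJ and CAST/EiJ. Casting lasted 3 weeks, and the uncast right limb of the same mouse was the control, so that every control limb came from an animal that carried a cast. No transgene or drug is named in the labels. Of 48 libraries, 46 were used, because the control limbs of A/J mice 2 and 5 held only 2335 and 50 counts. That left 22 control and 24 immobilized limbs, and 22 mice with both, of which A/J contributed 1.

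Wnt ligands act by joining a Frizzled receptor to an LRP5 or LRP6 co-receptor, which stabilizes beta-catenin in the cell and, in bone, favours the formation and activity of osteoblasts. The pathway is held back at several points. Sclerostin (Sost), made mainly by osteocytes, Dkk1 and the sclerostin relative Sostdc1 occupy the LRP co-receptors, the secreted Frizzled-related proteins (Sfrp1, Sfrp2, Sfrp4) and Wif1 bind Wnt proteins outside the cell, and Notum removes the lipid that Wnts need to engage Frizzled. Nkd2 and Axin2 act inside the cell, where Axin2 is part of the complex that marks beta-catenin for destruction. Axin2, Notum and Dkk1 are themselves known to be switched on by beta-catenin in many tissues, which makes them feedback genes.

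All but Sostdc1 were measurable. The libraries used held 5253408 to 14744056 counts, and 9 of the 10 genes were among the 16882 that passed the filter on low counts. Sostdc1 did not pass. It had no count in 13 of 22 control and 14 of 24 immobilized libraries and never more than 4, with 18 counts over all control and 16 over all immobilized limbs. A count of 0 allows up to 3 counts, which is 0.571 CPM (counts per 1000000 counts of the library) in the shallowest library and 0.203 CPM in the deepest, so that no difference in Sostdc1 was detectable at this depth. This limit covers counting error only.

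Per kilobase of exon, the scale on which genes can be compared with each other, the median level over control limbs was highest for Sost, at 41.5 CPM per kilobase, followed by Wif1 at 22.4 and Sfrp4 at 10.7. Dkk1 stood at 5.41, Nkd2 at 3.21 and Sfrp1 at 3.15 CPM per kilobase. Sfrp2 (0.961), Notum (0.755) and Axin2 (0.693) were low. In counts, Notum ranged from 2 to 55 and Sfrp2 from 1 to 502 per control library, and Axin2 from 10 to 67. Counting noise is therefore a larger part of the spread for Sfrp2, Notum and Axin2 than for Sost or Wif1. Levels per kilobase and all levels that follow are in CPM of the library size as scaled by edgeR's TMM factor. The Sostdc1 limit used the library's total counts. Fold changes come from the fitted model.

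The genes lie apart from each other in GRCm38, for example Sost on chromosome 11 (101962458 to 101967015), Dkk1 on chromosome 19 (30545863 to 30549665), Sfrp2 on chromosome 3 (83766321 to 83774316), Wif1 on chromosome 10 (121033960 to 121100650) and Nkd2 on chromosome 13 (73818534 to 73847631). RefSeq promoter sequences (GRCm38.p6) were matched for 6 of the 10 genes, and those of 5 are shown because the comparisons below turn on these genes. They are written 5′ to 3′ upstream of the RefSeq start, up to 250 bases and ending where a GENCODE exon of the gene begins, and for Dkk1 as windows of 30 bases around each match. The RefSeq start of Dkk1 lies within the GENCODE span given above, so that of its windows only the RUNX window is wholly upstream of that span. Capitals mark matches on either strand to the TCF/LEF core CTTTGA, through which beta-catenin acts, to the RUNX core TGTGGT, bound by the osteoblast factor Runx2, or to the TATA box TATAAA.
Sost (chr11:101967016-101967265, minus strand): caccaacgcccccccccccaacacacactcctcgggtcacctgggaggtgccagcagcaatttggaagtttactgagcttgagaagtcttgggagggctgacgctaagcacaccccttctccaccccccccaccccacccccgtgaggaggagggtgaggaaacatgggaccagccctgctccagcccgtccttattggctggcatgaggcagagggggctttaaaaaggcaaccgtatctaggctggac
Sfrp2 (chr3:83766071-83766320, plus strand): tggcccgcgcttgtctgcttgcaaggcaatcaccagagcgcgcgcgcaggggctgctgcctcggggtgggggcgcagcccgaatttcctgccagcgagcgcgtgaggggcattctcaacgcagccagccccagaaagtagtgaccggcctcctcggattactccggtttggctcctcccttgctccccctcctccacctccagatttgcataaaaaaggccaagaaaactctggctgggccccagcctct
Nkd2 (chr13:73847632-73847881, minus strand): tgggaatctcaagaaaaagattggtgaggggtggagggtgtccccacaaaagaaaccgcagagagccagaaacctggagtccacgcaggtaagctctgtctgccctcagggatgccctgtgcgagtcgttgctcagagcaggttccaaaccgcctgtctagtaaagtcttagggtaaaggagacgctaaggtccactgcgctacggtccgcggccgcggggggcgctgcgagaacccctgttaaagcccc
Wif1 (chr10:121033754-121033959, plus strand): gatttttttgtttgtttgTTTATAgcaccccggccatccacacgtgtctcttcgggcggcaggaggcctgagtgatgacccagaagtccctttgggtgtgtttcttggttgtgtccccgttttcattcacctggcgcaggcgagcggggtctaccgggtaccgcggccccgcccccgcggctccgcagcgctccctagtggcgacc
Dkk1 TCF/LEF window (chr19:30549653-30549682, minus strand): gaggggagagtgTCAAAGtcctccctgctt
Dkk1 TCF/LEF window (chr19:30549596-30549625, minus strand): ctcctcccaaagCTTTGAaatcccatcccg
Dkk1 RUNX window (chr19:30549686-30549715, minus strand): ctggacaaggggACCACAgtgcaagggagg
Dkk1 TATA box window (chr19:30549533-30549562, minus strand): tgggagcctgagTATAAAggcagccagagg
Within the 250 bases before the RefSeq start, Dkk1 held 2 matches to the TCF/LEF core, 1 to the RUNX core and 1 to the TATA box. Wif1 held 1 TATA box match, on the reverse strand. Sost, Sfrp2, Nkd2 and Axin2 held none of the 3. Over 32851 RefSeq promoters, 13.8% held the TCF/LEF core, 14% the RUNX core and 12.4% the TATA box within the same length. A match is a description of these letters in the C57BL/6J-derived reference, and the other strains' sequences were not analysed here.

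Across the 8 strains, Sfrp2 and Notum rose in the immobilized limb, and no member fell. The question was whether casting moves these genes on average over genetic backgrounds. Sfrp2 ran from 0.133 to 57 CPM over the 22 control limbs with a median of 2.07, and from 0.669 to 43.5 CPM over the 24 immobilized limbs with a median of 6.57. The ranges overlap, but within mice Sfrp2 was higher in the cast limb of 20 of 22. Its mean log2 fold change was 1.20 ± 0.21 (SE), with an adjusted p of 0.00512 from edgeR's quasi-likelihood test on mouse pairs. The 2 mice with a lower value were A/J mouse 1 (21 CPM control, 4.87 immobilized) and NZO/HlLtJ mouse 4 (57 control, 11 immobilized), the pair of highest control values of all.

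Notum was near the floor in both limbs, from 0.255 to 8.09 CPM in control limbs (median 1.82) and from 0.695 to 9.73 in immobilized limbs (median 3.55). It was higher in the cast limb of 15 of 22 mice, by a mean log2 fold change of 0.63 ± 0.16 (SE; edgeR adjusted p = 0.0244). These 2 of 9 members tested stand against 7.43% of all 16882 genes called in the same comparison (1255 genes). The median log2 fold change was 0.30 over the 9 members and 0.01 over all genes. Neither gene was called in the fit without a term for the mouse, at an adjusted p of 0.0775 for Sfrp2 and 0.262 for Notum. Both were still called whichever single mouse was left out.

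The other members did not pass in the mean over strains. Nkd2 was higher in 18 of 22 mice, with a log2 fold change of 0.30 ± 0.14 (SE, edgeR adjusted p = 0.197). Wif1 stood at 0.30 ± 0.13 (adjusted p = 0.178) and Dkk1 at 0.32 ± 0.19 (adjusted p = 0.328), with 14 and 12 of 22 mice higher. Sfrp4 (0.23 ± 0.23, adjusted p = 0.609), Sfrp1 (-0.18 ± 0.14, adjusted p = 0.494) and Axin2 (-0.02 ± 0.20, adjusted p = 1) were higher in 13, 11 and 11 mice. Sost, the member most tied to loading of bone in general knowledge, was higher in 11 mice and lower in 11, at 0.17 ± 0.29 (adjusted p = 0.812). Its mean level was 184 ± 304 CPM (SD, n = 22) in control and 132 ± 103 CPM (SD, n = 24) in immobilized limbs, the opposite order to the fitted sign, and a control limb of WSB/EiJ held the highest value, 1305 CPM.

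**Figure D1:**
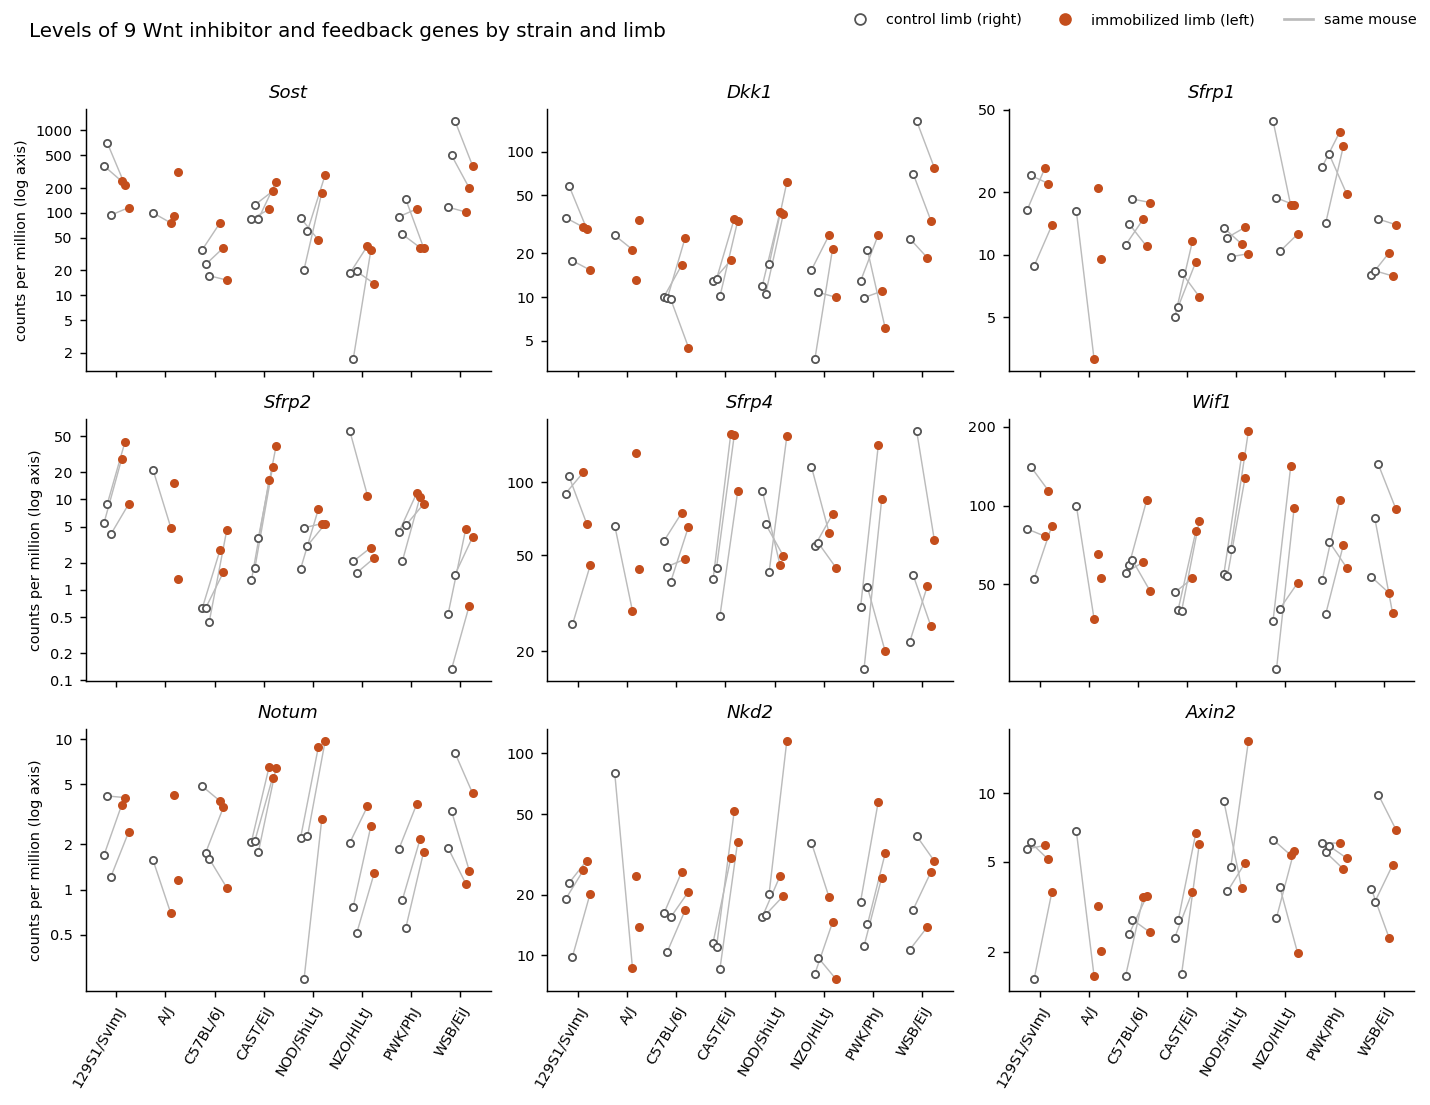
Level of each gene in CPM (log axis) by strain, with open circles for control limbs, filled circles for immobilized limbs and a line for each mouse with both. Sfrp2 lines rise in 20 of 22 mice, whereas Sost lines rise in 11 and fall in 11, and the lines of A/J mouse 1 fall in all 9 panels.

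A/J mouse 1 had a large share in these means. In this mouse, the only A/J pair, all 9 tested members were lower in the cast limb, with log2 fold changes from -3.19 to -0.32. Its control limb also held a summed level of the 14 osteoblast markers of 126278 CPM, the highest of the 22 control limbs, whose median was 24120. Without this mouse, 4 members were called in the mean over the remaining strains, while the genes called over the whole table went from 1255 to 2805. Sfrp2 then stood at 1.67 (edgeR adjusted p = 0.000109), Notum at 0.88 (0.000435), Nkd2 at 0.80 (0.000726) and Wif1 at 0.54 (0.00654). Sfrp1 and Axin2 changed sign, to 0.13 and 0.28, and neither was called.

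Strain by strain, the calls fell in CAST/EiJ, NOD/ShiLtJ and the A/J pair. In CAST/EiJ 4 of 9 members rose. Of all genes, 13.9% were called there in either direction, 1415 higher and 924 lower. Sfrp2 had 1.27, 1.74 and 3.71 CPM in the control limbs of mice 2, 3 and 4 and 16.4, 22.6 and 38.5 CPM in their immobilized limbs. The limbs did not overlap, and the log2 fold change was 3.56 ± 0.52 (SE, edgeR adjusted p = 0.000487). Nkd2, with 11.6, 11 and 8.6 CPM in control limbs and 30.3, 51.6 and 36.6 CPM in immobilized limbs, rose by 1.90 ± 0.35 (adjusted p = 0.0023).

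Notum in CAST/EiJ was tight within each limb, at 2.08, 2.11 and 1.77 CPM against 6.55, 5.54 and 6.42 CPM. Its log2 fold change was 1.63 ± 0.34 (edgeR adjusted p = 0.00458). Sfrp4 had 39.7, 44.3 and 28.1 CPM in control and 159, 156 and 91.6 CPM in immobilized limbs, a log2 fold change of 1.84 ± 0.57 (adjusted p = 0.0393). All 9 members had a positive estimate in this strain and 7 had an unadjusted p under 0.05, as did 29.7% of all genes. Without CAST/EiJ mouse 4, 2 of the members were called, since Notum (adjusted p = 0.0517) and Sfrp4 (0.132) dropped out, and Sfrp4 dropped out whichever of the 3 mice was left out. Over the 22 fits that each left out 1 mouse, 684 to 2842 genes of the whole table were called in CAST/EiJ.

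In NOD/ShiLtJ, a strain prone to autoimmune diabetes, 4 of 9 members rose. Of all genes, 8.33% were called there in either direction, 937 higher and 470 lower. Notum had 2.21, 0.255 and 2.26 CPM in the control limbs of mice 4, 5 and 6 and 8.81, 2.92 and 9.73 CPM in the immobilized limbs, a log2 fold change of 2.32 ± 0.36 (edgeR adjusted p = 0.00492). Wif1 had 54.8, 53.7 and 68.2 CPM against 155, 127 and 193 CPM. Each cast limb was above each control limb, and the log2 fold change was 1.42 ± 0.33 (adjusted p = 0.0164).

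Dkk1 in NOD/ShiLtJ had 11.9, 10.6 and 16.7 CPM in control limbs and 38.3, 37.4 and 61.4 CPM in immobilized limbs, a log2 fold change of 1.79 ± 0.48 (edgeR adjusted p = 0.0306). Nkd2 rose by 1.18 ± 0.36 (adjusted p = 0.0492), but mouse 6 alone reached 115 CPM in the cast limb, and the call was lost in 17 of 22 fits that each left out 1 mouse, mostly a mouse of another strain. Without that mouse Nkd2 stood at 0.49 (adjusted p = 0.473). Without NOD/ShiLtJ mouse 4 none of the 4 was called, with adjusted p-values from 0.0797 for Notum to 0.134 for Dkk1 and log2 fold changes from 1.37 to 2.53. Without mouse 6, too, none of the 4 was called. Over the 22 fits that each left out 1 mouse, 0 to 1777 genes of the whole table were called in NOD/ShiLtJ.

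In the A/J pair, Nkd2 was 79.6 CPM in the control and 8.69 CPM in the immobilized limb of mouse 1, a log2 fold change of -3.19 ± 0.65 (edgeR adjusted p = 0.0215), against 3.99% of all genes called. This value comes from 1 mouse that is assumed to vary like those of the other strains. The immobilized limbs of A/J mice 2 and 5, whose control limbs were not usable, had 24.7 and 13.9 CPM of Nkd2.

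No member passed in the other 5 strains, where few genes did at all. The share of genes called was 0% in 129S1/SvImJ, 0.00592% (1 gene each) in C57BL/6J, NZO/HlLtJ and WSB/EiJ, and 0.0889% in PWK/PhJ. At an unadjusted p under 0.05 in edgeR, 1 member passed in 129S1/SvImJ, 1 in C57BL/6J, 2 in NZO/HlLtJ, 3 in PWK/PhJ and 2 in WSB/EiJ. Of all genes, 4.54%, 4.88%, 2.17%, 12.2% and 6.43% did so in the same order of strains. DESeq2 called 1 member in NZO/HlLtJ (18 of all genes), 1 in PWK/PhJ (152 of all genes) and none in the other 3. Sfrp2 stood at 1.95 ± 0.48 in 129S1/SvImJ, 2.27 ± 0.67 in C57BL/6J and 2.13 ± 0.68 in WSB/EiJ, higher in all 3 mice of each. Wif1 in NZO/HlLtJ stood at 1.46 ± 0.34, with 36.2, 23.7 and 40.4 CPM in the control limbs of mice 4, 5 and 6 and 142, 98.3 and 50.6 CPM in the cast limbs.

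After A/J, WSB/EiJ had the most estimates below 0, in 6 of 9 members. Sost had 117, 499 and 1305 CPM in the control limbs of WSB/EiJ mice 2, 4 and 5 and 102, 200 and 369 CPM in the cast limbs, a log2 fold change of -1.12 ± 0.72 (edgeR adjusted p = 0.845). Dkk1 (-0.87 ± 0.46), Wif1 (-0.66 ± 0.33) and Notum (-0.99 ± 0.35) were likewise lower in all 3 WSB/EiJ mice and not called. In NOD/ShiLtJ, Sost went from 86.7, 20.5 and 60.2 CPM to 47.0, 175 and 290 CPM, higher in 2 of 3 mice, at 1.58 ± 0.82 (adjusted p = 0.253).

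**Figure D2:**
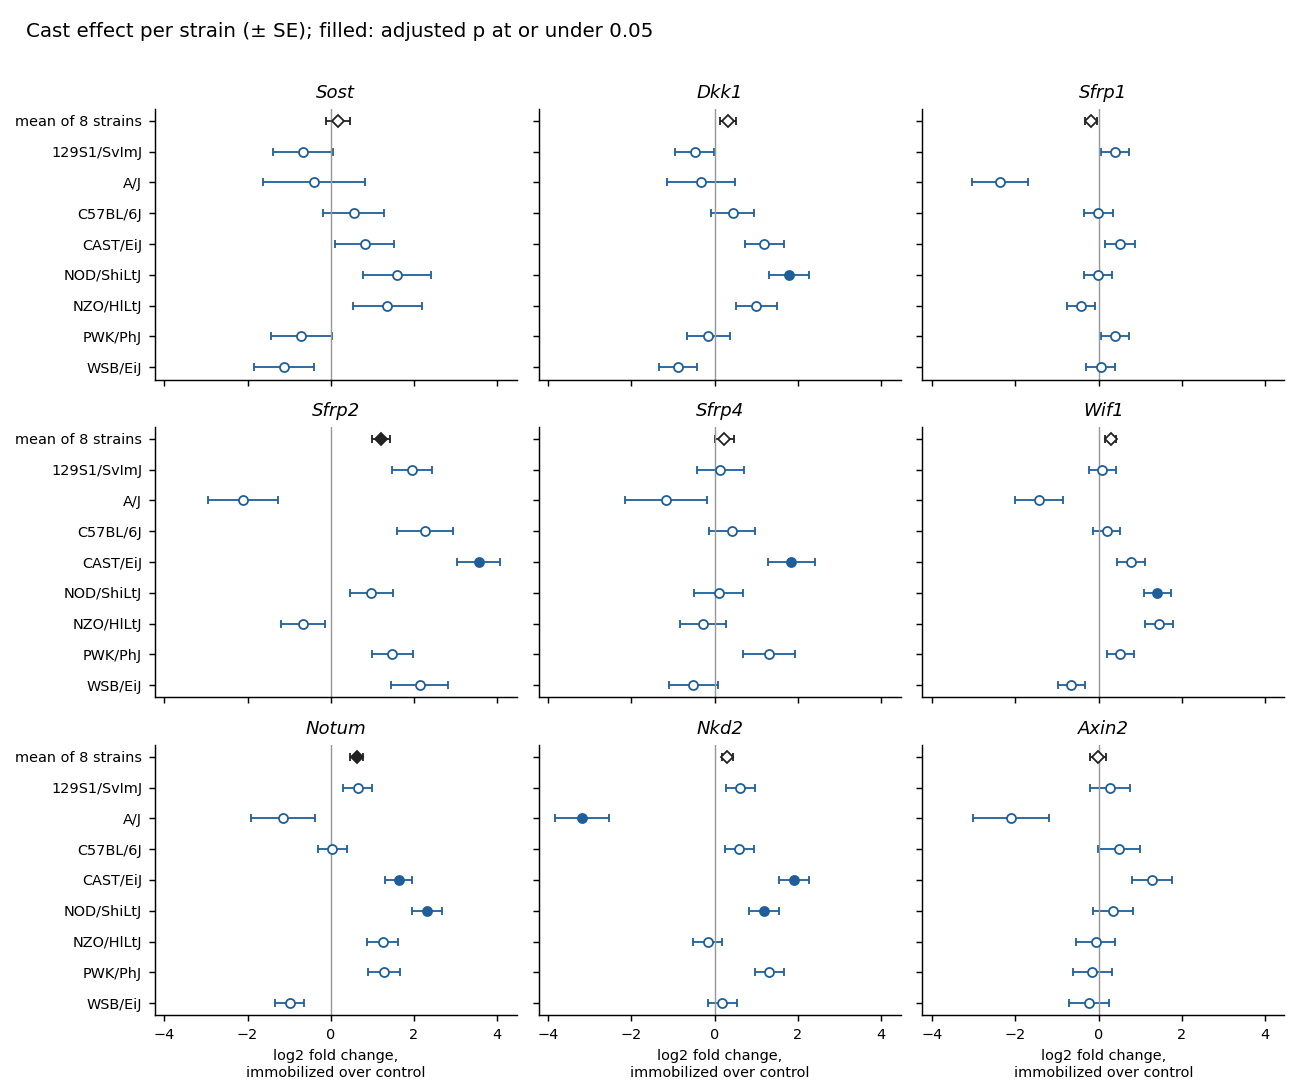
Log2 fold change of the immobilized over the control limb for each gene, as the mean of 8 strains (diamond) and per strain (circles), with bars of 1 SE and filled symbols for adjusted p at or under 0.05. Filled strain symbols are confined, among these 9 genes, to CAST/EiJ (4), NOD/ShiLtJ (4) and A/J (1), and the A/J estimate is the lowest for Sfrp1, Sfrp2, Sfrp4, Wif1, Notum, Nkd2 and Axin2.

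Whether the strains differ in the cast effect was tested directly with an F test over all 8 strain effects. In it 4 of 9 members passed, against 2.5% of all genes (422). They were Notum (edgeR adjusted p = 0.0223), Nkd2 (0.0250), Sfrp2 (0.0314) and Wif1 (0.0470). Strain estimates ran from -1.15 in A/J to 2.32 in NOD/ShiLtJ for Notum and from -3.19 in A/J to 1.90 in CAST/EiJ for Nkd2. For Sfrp2 they ran from -2.11 in A/J to 3.56 in CAST/EiJ. All 4 calls were lost without A/J mouse 1, at adjusted p-values of 0.0845 for Notum, 0.153 for Sfrp2, 0.176 for Wif1 and 0.247 for Nkd2, and 4 genes of the whole table were then called. All 4 were also lost without CAST/EiJ mouse 3 or mouse 4. Of 22 fits that each left out 1 mouse, the call was lost in 3 for Nkd2, 4 for Notum, 6 for Sfrp2 and 18 for Wif1. Sost (adjusted p = 0.394), Dkk1 (0.140), Sfrp1 (0.234), Sfrp4 (0.299) and Axin2 (0.351) did not pass.

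In the uncast limb, 6 of 9 members differed among strains, where 40.6% of the 16493 genes tested there did. The LRP antagonists gave the lowest p-values, with edgeR adjusted p = 0.000854 for Dkk1 and 0.00103 for Sost. Sfrp2 (0.00695), Wif1 (0.0152), Nkd2 (0.0267) and Sfrp1 (0.0336) followed. Nkd2 rested on the A/J library, without which its adjusted p was 0.548. Axin2 (0.115), Notum (0.236) and Sfrp4 (0.291) did not pass. Reads of all strains were counted against a C57BL/6J-derived build, and its part in differences between strains was not tested. It does not differ between the limbs of a mouse.

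Sost in control limbs ran in the order WSB/EiJ (641 ± 606 CPM, SD, n = 3), 129S1/SvImJ (389 ± 304), A/J (99.7, 1 library), CAST/EiJ (97.8 ± 23.6), PWK/PhJ (96.8 ± 45.9), NOD/ShiLtJ (55.8 ± 33.3), C57BL/6J (25.5 ± 9.38) and NZO/HlLtJ (13.2 ± 9.98). The highest mean was 48.6 times the lowest, yet neighbours in this order overlapped at every step. Within 129S1/SvImJ the 3 mice had 372, 701 and 93.7 CPM. Against the mean of the other 7 strains, Sost was higher in WSB/EiJ by 3.22 ± 0.54 on the log2 scale (edgeR adjusted p = 0.00111) and in 129S1/SvImJ by 2.41 ± 0.54 (0.0137). It was lower in NZO/HlLtJ, at -3.16 ± 0.82 (0.0321). Leaving out 1 mouse of the strain could end each call, with adjusted p-values of 0.0511 without WSB/EiJ mouse 5, 0.288 without 129S1/SvImJ mouse 3 and 0.0939 without NZO/HlLtJ mouse 5.

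Dkk1 in control limbs was also highest in WSB/EiJ, at 25.3, 70.5 and 163 CPM in mice 2, 4 and 5, followed by 129S1/SvImJ at 37.1 ± 20.3 CPM (SD, n = 3). The remaining strains lay between 9.83 ± 0.192 CPM in C57BL/6J and 26.6 CPM in the A/J library. WSB/EiJ stood above the other 7 strains by 2.45 ± 0.36 (edgeR adjusted p = 0.000254), and by 1.61 (0.0214) without mouse 5. Of the osteocyte genes, Mepe and Dmp1 likewise had their highest control means in WSB/EiJ. Mepe, a matrix protein gene of osteocytes, was 1634 ± 1901 CPM (SD, n = 3) in WSB/EiJ and 59.6 ± 42.1 CPM in NZO/HlLtJ control limbs, and Dmp1 was 1195 ± 855 and 132 ± 87.6 CPM. Phex was 277 ± 142 CPM in WSB/EiJ and 293 CPM in the A/J library. The summed level of the 9 osteocyte markers ranged from 1122 to 7239 CPM in WSB/EiJ, from 1009 to 2596 in 129S1/SvImJ and from 361 to 764 in NZO/HlLtJ, and was 1377 in the A/J library. The lowest WSB/EiJ mouse was thus below the A/J library and within the range of 129S1/SvImJ. Of these 9 markers, 6 differed among strains in control limbs. In bulk tissue, fewer cells of a type and less RNA per cell cannot be told apart.

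Of the other members, 3 were each called against the other strains in 1 strain. Sfrp1 had its lowest control mean in CAST/EiJ, at 4.98, 5.60 and 8.18 CPM, overlapping WSB/EiJ, whose lowest control limb held 7.97 CPM. The log2 difference from the mean of the other strains was -1.35 ± 0.38 (edgeR adjusted p = 0.0183, and 0.0999 without mouse 2). Nkd2 was higher in the A/J library by 2.32 ± 0.48 (adjusted p = 0.015, 1 library). Sfrp2 was called higher in NZO/HlLtJ at 2.81 ± 0.62 (adjusted p = 0.0115), a value that rests on mouse 4. Its 3 mice had 57, 2.06 and 1.54 CPM, and without mouse 4 the estimate was -0.62 (adjusted p = 0.592). The A/J library held 21 CPM of Sfrp2, above the NZO/HlLtJ mean of 20.2 CPM, with an estimate of 2.89 that was not called.

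The number of members called against the other strains was 2 in WSB/EiJ (6.54% of all genes called there), 2 in NZO/HlLtJ (4.61%), and 1 each in 129S1/SvImJ (6.49%), A/J (1.69%) and CAST/EiJ (22.7%). None was called in C57BL/6J (8.83%), NOD/ShiLtJ (10.8%) or PWK/PhJ (16.7%) by edgeR, where 4, 0 and 2 had an unadjusted p under 0.05, as did 26.8%, 21.5% and 31.1% of all genes. DESeq2 called 2, 0 and 0 members there. C57BL/6J nevertheless had the lowest mean for Sfrp2 (0.565 ± 0.110 CPM) and Dkk1.

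In immobilized limbs, 5 of 9 members differed among strains, where 50.3% of all genes did. These were Sfrp2 (edgeR adjusted p = 0.00358), Sost (0.0160), Sfrp1 (0.0223), Wif1 (0.0294) and Nkd2 (0.0426), whose call was lost in 12 of 24 fits that each left out 1 mouse. Dkk1, at 0.112, was not called. The spread of Sost between strains was smaller than in control limbs in these libraries, with WSB/EiJ at 224 ± 135 CPM (SD, n = 3), 7.54 times NZO/HlLtJ at 29.7 ± 13.9 CPM. For Dkk1 the highest mean was NOD/ShiLtJ (45.7 ± 13.6 CPM) and for Notum it was NOD/ShiLtJ (7.15 ± 3.69), with CAST/EiJ next (6.17 ± 0.546) and clear of the third strain, 129S1/SvImJ (3.38 ± 0.872). The difference in strain spread between limbs was not tested.

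Some pairs of members moved the same way in nearly every mouse. Counting mice in which a pair of genes moved the same way, Dkk1 and Wif1 did so in 20 of 22, Sfrp2 and Nkd2 in 20, and Sost moved with Dkk1 and with Wif1 in 19 each. Wif1 and Notum agreed in sign in 19. Sost and Sfrp2 did so in 11 of 22. Sost and Axin2 agreed in 18, Dkk1 and Notum in 17 and Sfrp4 and Nkd2 in 17. Sfrp2 and Nkd2 were higher in the cast limb of 20 and 18 mice, so most mice agree in sign for that reason alone. Sost, Dkk1 and Wif1 were higher in 11, 12 and 14 mice. The agreement to be met without any link was not computed. These pairs were noticed in the values, have no test and do not divide the members into sets.

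Genes on the osteocyte list were among those whose limb difference was most like that of Sost and Dkk1. Likeness was Pearson's r of the log2 difference between limbs over 22 mice, which share strain and library depth, and it is a description. For Sost the nearest of all genes tested were Mepe (r = 0.95), Jam2 (0.88) and Ackr3 (0.87). Mepe and Ackr3 are on the list of osteocyte markers. For Dkk1 they were Dmp1 (r = 0.91), Ptprz1 (0.88) and Phex (0.87), of which Dmp1 and Phex are on that list and act in bone mineralization and phosphate balance. Spearman's rho was 0.91 for Sost with Mepe and 0.89 for Dkk1 with Dmp1. Without the 2 mice farthest from the median, r was 0.90 and 0.88. Within strains, over 21 mice, it was 0.96 and 0.82.

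**Figure D3:**
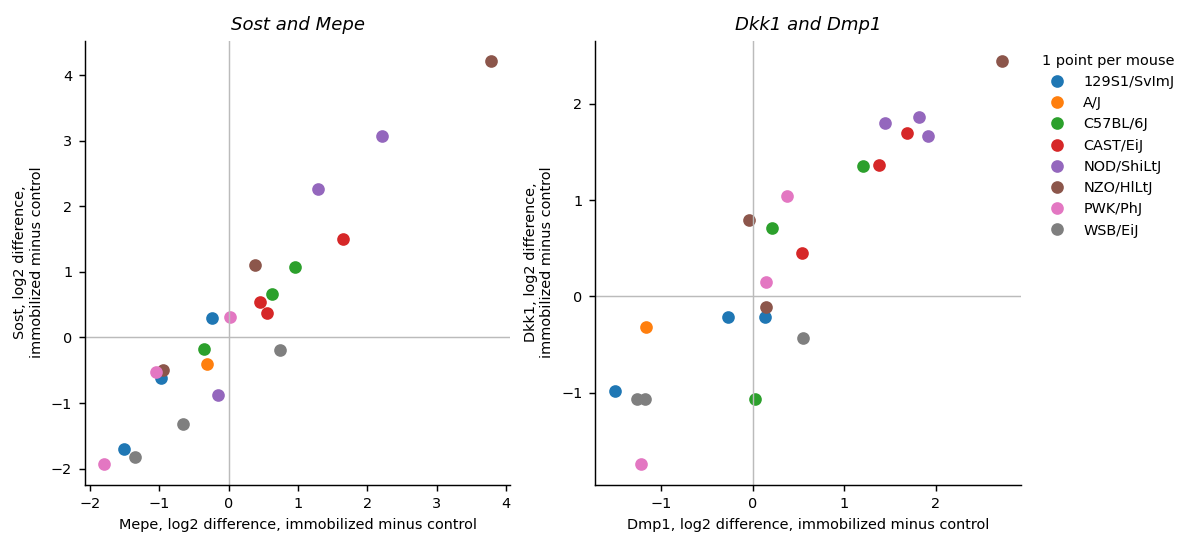
Log2 difference between limbs of Sost against Mepe (left) and of Dkk1 against Dmp1 (right), 1 point per mouse, coloured by strain. The points lie near a rising line (r = 0.95 and 0.91 over 22 mice), with NZO/HlLtJ mouse 5 at the top right of both.

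The other members had other neighbours. Nkd2 moved most like Adgra2 (r = 0.95), Loxl2 (0.94) and Hspg2 (0.94), which encode a receptor that takes part in Wnt7 signalling, a collagen cross-linking enzyme and the basement membrane protein perlecan. Wif1 and Notum shared Lifr, the receptor of leukaemia inhibitory factor, among their 3 nearest genes (r = 0.87 and 0.82). For Notum, r with its nearest gene Cadm1 was 0.82 over all mice and 0.46 within strains. Sfrp4 was nearest to Zfyve21 (0.91) and Thra, a thyroid hormone receptor (0.90), Sfrp1 to Ehd2 (0.86), Sfrp2 to Ctsl, a lysosomal protease (0.85), and Axin2 to Cacnb4 (0.92). None of the nearest 3 genes of any member was on the osteoblast marker list.

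Among other genes of the pathway, calls were few in the mean and many in CAST/EiJ. Of 14 tested other Wnt inhibitors and feedback genes, none was called in the mean over strains, where 7.43% of all genes were. Of 12 Wnt target genes, 1 rose, the mesenchymal transcription factor Twist1 (0.56 ± 0.16, edgeR adjusted p = 0.0438). Of 37 ligands, receptors and transducers, 4 rose and 1 fell. The receptor Fzd3 rose by 0.83 ± 0.17, the R-spondin receptor Lgr4 by 0.47 ± 0.14, the ligand Wnt4 by 0.41 ± 0.10 and Wls, which carries Wnts to the cell surface, by 0.28 ± 0.07. Fzd4, the receptor of Norrin, had -0.39 ± 0.11 (adjusted p = 0.0433). Fzd3, Lgr4, Wnt4 and Wls were higher in the cast limb of 18, 18, 19 and 19 of 22 mice, and Fzd4 in 11. Fzd4 had -2.58 in the A/J pair (1 mouse) and -1.0 in NOD/ShiLtJ, and its mean without the A/J pair was not analysed. The list medians were 0.04, 0.13 and 0.15, against 0.01 over all genes.

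In CAST/EiJ, where 13.9% of all genes were called, 4 other inhibitors rose and 1 fell. Apcdd1, a membrane inhibitor of Wnt, rose by 3.16 ± 0.51 and Frzb, the Frizzled-related protein of cartilage, by 2.74 ± 0.63. Trabd2b, a protease that inactivates Wnts, rose by 1.28 ± 0.35, whereas Draxin had -1.26 ± 0.26. Of the targets, 6 rose and 2 fell, among them Wisp1 (2.08 ± 0.50), Bambi (2.08 ± 0.49), Tcf7 (1.93 ± 0.33) and Lgr5 (-1.91 ± 0.62). Of the ligands, receptors and transducers, 16 rose and none fell, led by Wnt11 (3.24 ± 0.89), Fzd9 (1.78 ± 0.54), the acyltransferase Porcn (1.65 ± 0.32) and Fzd2 (1.65 ± 0.53). The highest adjusted p among those named was 0.0468, for Lgr5.

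In NOD/ShiLtJ, with 8.33% of all genes called, 1 of the other inhibitors (Apcdd1, 1.55 ± 0.46) and 5 of 12 targets rose, with Bambi at 2.0 ± 0.49, Twist1 at 1.59 ± 0.40, Tcf7 at 1.55 ± 0.32 and Tnfrsf19 at 1.17 ± 0.23. Of 37 ligands, receptors and transducers, 5 rose and 1 fell, including the co-receptor Lrp5 (0.95 ± 0.20), Wnt4 (1.08 ± 0.26), Wls (0.89 ± 0.18) and Fzd4 (-1.0 ± 0.29). In the A/J pair, with 3.99% of all genes called, 1 inhibitor (Trabd2b, -3.24 ± 0.78), 1 target (Tnfrsf19, -2.15 ± 0.42) and 3 of the 37 (Fzd4, Lrp5 and Wnt4, from -2.58 to -1.73) fell, and none rose.

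Osteoblast markers rose in the mean, and had positive medians in strains both with and without a called member. All 14 osteoblast markers had a positive mean estimate, 10 were called higher and the list's median was 0.73. The median was 3.04 in CAST/EiJ (11 of 14 called), 2.03 in NOD/ShiLtJ (10 of 14), -2.08 in the A/J pair and 0.08 in WSB/EiJ. It was 1.06 in PWK/PhJ, 0.92 in NZO/HlLtJ, 0.72 in 129S1/SvImJ and 0.39 in C57BL/6J. In these 4 strains 13 of 14 estimates were positive, and no marker of the list and no member was called. The summed osteoblast level ranged from 5633 to 126278 CPM in control and from 9219 to 310489 CPM in immobilized limbs. The mean log2 difference between limbs over the 14 markers was above 0 in 18 of 22 mice. The 9 osteocyte markers had medians of 0.27 in the mean, 1.13 in NOD/ShiLtJ, 1.44 in CAST/EiJ and -0.54 in WSB/EiJ. None of them was called in the mean, while 5 were called higher in NOD/ShiLtJ and 4 in CAST/EiJ. In the other strains the median ran from -0.92 in the A/J pair to 0.56 in NZO/HlLtJ. The summed osteocyte level ran from 361 to 7239 CPM in control limbs and from 581 to 3266 CPM in cast limbs. No marker of either list was at 0 over all limbs, so that the labelled bone tissue was present. With the osteoblast marker score as a covariate, no member was called in the mean, in any strain or among strains. Few genes of the whole table were called either, with 9 in the mean, 7 in A/J, 6 in CAST/EiJ and 0 in NOD/ShiLtJ. Among strains it was 0, and in each of the remaining strains 0 to 3. Sfrp2 then had 0.80 (edgeR adjusted p = 0.372) and Notum 0.47 (0.515).

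Markers of skeletal muscle, a tissue that lies next to the bone, were lower in the cast limb in the mean, with a median of -2.11 (10 of 12 called). In C57BL/6J the median was 0.92, with 10 of 12 estimates positive, and in CAST/EiJ -0.19, with 5 of 12 positive. None was called in these 2 strains. In each of the other strains no estimate was positive. The mean log2 difference between limbs over these markers was above 0 in 7 of 22 mice. Their summed level ran from 55.9 to 58480 CPM in control and from 21.3 to 20657 CPM in immobilized limbs. With the muscle score as a covariate Sfrp2 (1.39, edgeR adjusted p = 0.0237) and Notum (0.97, 0.0131) were still called. Growth plate cartilage markers had a median of 1.37 in the mean, with 1 of 11 called, and fibrous tissue and synovium markers 0.61, with 3 of 10 called. B cell markers had a median of -0.42 in the mean, with 4 of 8 called lower, and -1.03 in CAST/EiJ, with 3 of 8 called lower. Adipocyte markers had a median of 1.61 in CAST/EiJ, where 3 of 7 were called higher, and -0.13 in the mean, with none called. Neutrophil markers had 0.15 in the mean and 2.37 in the A/J pair, where all 8 estimates were positive and none was called. Of 7 markers of CXCL12-abundant stromal cells 1 was called lower in the mean (median -0.15), and of 7 erythroid markers none was (median -0.10). The part of these cartilage, fibrous tissue and marrow markers in the members' values was not tested.

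**Figure D4:**
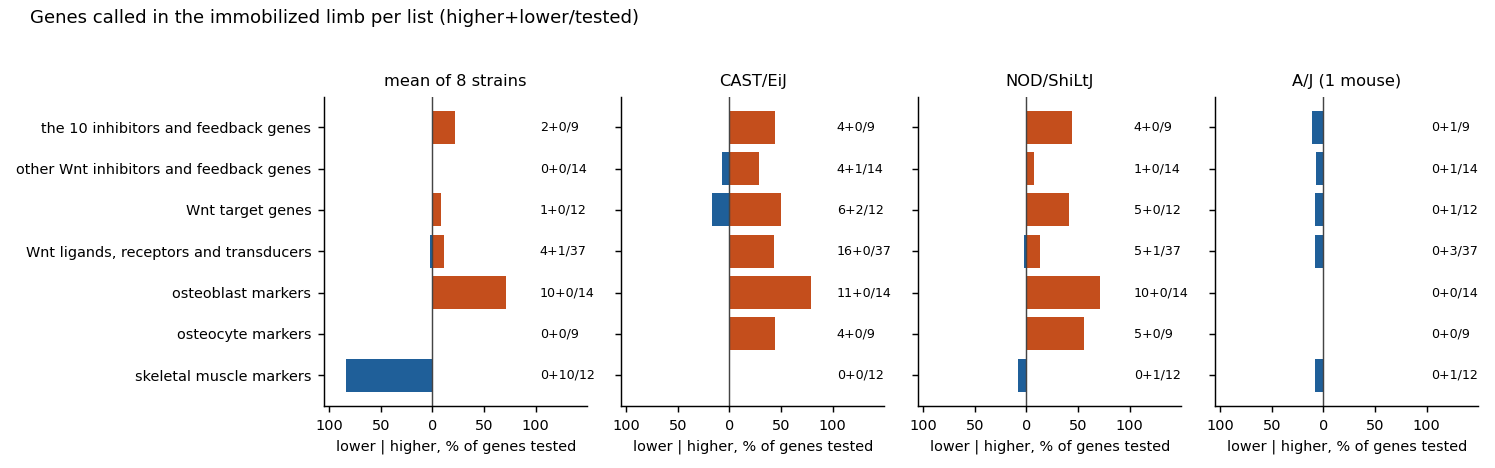
Share of the tested genes of each list called higher (right of 0) or lower (left of 0) in the immobilized limb, for the mean of 8 strains, CAST/EiJ, NOD/ShiLtJ and the A/J pair, with the counts beside each bar. The members have 2, 4, 4 and 0 higher, and the osteoblast markers 10, 11, 10 and 0.

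Of the members, 4 overlap other annotated genes. The loci of Sfrp2, Notum, Nkd2 and Axin2 share ground with genes on the opposite strand (Gm26771, Notumos and Myadml2os, Gm8062 and Gm11670). The kit marks strand, but the strand setting of the counting is not given in the sources used here, so reads of the pairs cannot be told apart. Gm8062 had 8 counts over all libraries used, and the others were not analysed here.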

How the data were processed

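Poly(A) RNA of the tibial metaphysis was sequenced from both limbs of 24 mice. The deposited table holds whole-number counts per gene, not normalized. Per the submitters' processing notes, featureCounts, DESeq2 and the mm10 build were used, without versions. The aligner and how strand was treated in counting are not given in these sources. Coordinates are from GENCODE M21 (GRCm38), whose exon unions gave lengths. Counts were tested with edgeR 4.0.16 (TMM scaling, filterByExpr, robust quasi-likelihood fit, Benjamini-Hochberg adjustment over all genes, threshold 0.05) in R 4.3.3. The cast effect was fitted on the 44 libraries of 22 mice with a term per mouse and a limb effect per strain. The pairing comes from both limbs being of the same animal. Deviations of paired limbs from their group means correlated at -0.26 to 0.55 (median 0.089, 21 mice). Strains were compared within 22 control and within 24 immobilized limbs. The SE is the fold change over the root of the F statistic. The log2 limb differences behind likeness and counts of mice used CPM with a prior count of 2.

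Alternatives were DESeq2 1.42.0, no mouse term, all 48 libraries, no filter, RLE scaling, each strain alone, marker scores as covariates and each mouse left out. Fits without a mouse kept the dispersion trend of the full fit. The code was tested on simulated data. Named genes were the 10 members, pathway genes called in the mean or up to 4 per list with the largest change in strains with a called member, and for likeness the 3 genes of highest r. Members and lists were chosen with earlier results of these data known.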

Additional observations from a re-analysis of the deposited data

Results flagged for a closer look

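The cast effect of 4 of 9 members differed among the 8 strains by a direct test of the difference (edgeR F test, Benjamini-Hochberg adjusted). Of all 16882 genes, 422 (2.5%) did so. The adjusted p was 0.0223 for Notum, 0.0250 for Nkd2, 0.0314 for Sfrp2 and 0.0470 for Wif1. Each of these calls was lost without A/J mouse 1, without CAST/EiJ mouse 3 and without CAST/EiJ mouse 4. Without A/J mouse 1, 4 genes of the whole table were called. Over the 22 fits that each left out 1 mouse, the call was lost in 4 for Notum, 3 for Nkd2, 6 for Sfrp2 and 18 for Wif1.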

How the results depend on the processing

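Of 1673 values recomputed under an alternative, 1464 were unchanged, 134 lost the call, 2 gained a call, 16 changed sign and 57 counts moved. Unchanged means the same sign and call for a fold change, and the same call for an F test, which has no sign. For a count of members it means equal or within 1.5 times. A count that went to or from 0 was taken as moved. The numbers of members called were 2 in the mean over strains, 1 in the A/J pair, 4 each in NOD/ShiLtJ and CAST/EiJ and 4 in the test among strains. Of all genes, 1255, 674, 1407, 2339 and 422 were called, in the same order. Without the replicate block the members called were 0, 0, 2, 2 and 0, and the genes called 940, 28, 1059, 1257 and 1. With the osteoblast score as covariate all 5 were 0, with 9, 7, 0, 6 and 0 of all genes called. The mean effect then changed sign for Sost (-0.40), Dkk1 (-0.36), Sfrp4 (-0.085), Wif1 (-0.077) and Nkd2 (-0.10), none of which was called either way. With the muscle score A/J had 0 (15 of all genes) and the test among strains 2 (175 of all genes), and Axin2 stood at 0.25. Without the filter on low counts the mean had 1 and NOD/ShiLtJ 2, NZO/HlLtJ control limbs had 1 in place of 2, and the test in immobilized limbs had 3 in place of 5. Of all genes, 730, 938, 695 and 7477 were then called. DESeq2 called 2 in A/J, 1 in NZO/HlLtJ and 1 in PWK/PhJ for the cast effect, and in control limbs 2 in C57BL/6J and 3 in CAST/EiJ. Over all genes it called 1769, 18, 152, 2483 and 4785 there, against 674, 1, 15, 1457 and 3743 by edgeR. CAST/EiJ libraries fitted alone gave 8, with 3361 of all genes called against 2339. The cause of these shifts was not tested.

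Leaving out each mouse in turn gave 2 to 4 members in the mean, 1 to 2 in A/J, 0 to 4 in NOD/ShiLtJ, 2 to 5 in CAST/EiJ and 0 to 4 among strains. Genes called of the whole table were 760 to 2805, 386 to 1155, 0 to 1777, 684 to 2842 and 4 to 1182. In control limbs it gave 0 to 3 for 129S1/SvImJ, 1 to 2 for A/J, 0 to 1 for C57BL/6J, 0 to 2 for CAST/EiJ, 0 to 3 for NZO/HlLtJ, 0 to 1 for PWK/PhJ, 1 to 3 for WSB/EiJ and 4 to 7 over all strains, and in immobilized limbs 3 to 6. Of all genes, these fits called 305 to 1820 for 129S1/SvImJ, 246 to 676 for A/J and 529 to 2035 for C57BL/6J. They called 1771 to 4736 for CAST/EiJ, 677 to 873 for NZO/HlLtJ, 1702 to 3551 for PWK/PhJ and 568 to 1738 for WSB/EiJ. Over all strains they called 5107 to 9069, and 6932 to 8549 in immobilized limbs. The mean effect ran from -0.12 to 0.28 for Axin2 and from -0.23 to 0.13 for Sfrp1, and Sfrp2 in NZO/HlLtJ control limbs from -0.62 to 3.36. Counts of a few reads limit Sfrp2, Notum and Sostdc1 in many libraries, and 3 mice per strain limit each strain's estimate.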

Other observations

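The immobilized limbs of A/J mice 2 and 5, which had no usable control limb, give further levels for that strain. Sost was 91.2 and 311 CPM, Dkk1 13.0 and 34.0 CPM, and Wif1 65.1 and 53.0 CPM. Sfrp2 was 15.0 and 1.30 CPM, Sfrp4 132 and 43.9 CPM, and Notum 4.25 and 1.16 CPM.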
